A study of Mus musculus with 8 samples.

Results

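Hypoxia regulators, Vegfa and a pair of hypoxia-induced genes were followed in small intestinal crypts, the pockets of the gut lining that hold stem cells, dividing progenitors and Paneth cells. The 10 genes were taken by symbol from the deposited table: Hif1a, Epas1, Arnt, Vhl, Egln1, Egln2, Egln3, Vegfa, Bnip3 and Ankrd37. They were 10 of the 17634 genes listed, and all 10 passed the filter on low counts that left 12908 genes for testing. The groups were 4 libraries of miR-29ab1-/- mice, called the knockout here, and 4 libraries of WT mice. All mice were of strain C57BL/6N, all were irradiated, and crypts were taken 3 days later. With no unirradiated group, the genotypes are compared after irradiation alone. The labels name a whole-animal genotype with no promoter or Cre, and they do not give the radiation dose, age or sex.

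Cells sense oxygen through hypoxia-inducible factors (HIFs), pairs of an alpha subunit (HIF-1 alpha from Hif1a, HIF-2 alpha from Epas1) and the constant partner ARNT. When oxygen is present, the prolyl hydroxylases made from Egln1, Egln2 and Egln3 mark the alpha subunit, the VHL ubiquitin ligase binds the marked protein, and it is degraded. When oxygen is low the pair binds ACGTG sequences near genes such as Vegfa, which codes for the main growth factor of blood vessels. Much of this control acts on protein, which RNA libraries do not measure. The lining of the gut lives in steep oxygen gradients, and HIF-2 is known there for its part in iron uptake.

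The deleted locus on chromosome 6 makes miR-29a and miR-29b, small RNAs that pair through a seed (bases 2 to 8) with matches in 3′ untranslated regions (UTRs) and lower the bound mRNA. The mature sequences are shown because their seed decides which of the 10 genes hold a match; the seed is in capitals, and sequences and coordinates are from RefSeq on GRCm38. All 4 miR-29 genes share that seed, and Mir29b-2 and Mir29c lie on chromosome 1, outside the locus that the genotype names. Mir29b-1 and Mir29b-2 give the same mature RNA.
mmu-miR-29a-3p (Mir29a, chr6:31062673-31062694, minus strand): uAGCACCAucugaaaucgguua
mmu-miR-29b-3p (Mir29b-1, chr6:31063025-31063047, minus strand): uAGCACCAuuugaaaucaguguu
mmu-miR-29c-3p (Mir29c, chr1:195037600-195037621, plus strand): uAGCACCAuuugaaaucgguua

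The seed match TGGTGCT was looked for in the longest 3′ UTR that GENCODE M21 annotates for each gene on GRCm38. Of the 10 genes, 2 held a match, Vegfa and Arnt, each with 1. The Vegfa match starts at base 1682 of a 3′ UTR of 1865 bases and is followed by an A, the letter that extends pairing sites of this kind. The Arnt match starts at base 859 of 1847 and has no A after it. A match was also present in 1970 of the 12677 tested genes with an annotated 3′ UTR (15.5 percent), so holding TGGTGCT alone does not set a gene apart. That share takes matches with or without an A after them, and the share with an A was not counted. Both sites are shown with the match in capitals.
Vegfa (chr17:46017159-46017187, minus strand): catttatttatTGGTGCTactgtttatcc
Arnt (chr3:95496241-95496269, plus strand): ctcctgctcttTGGTGCTttcaactcatt

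Libraries held 9481191 to 14612782 counts in the knockout and 10719659 to 16231089 in WT. The labels do not say that replicates came from separate animals, and the spread behind each p-value is that between these 8 libraries. Among replicates 1 to 3 of a genotype it may be technical. The genes of miR-29 are not among the rows of the table, so the genotype could not be checked by them. Replicate 4 of either genotype held 1 and 3 counts of 4 Y-linked genes in the knockout and WT, while the other 6 libraries held 1285 to 2061. By these counts replicate 4 of each genotype came from an animal of the other sex than replicates 1 to 3. Sex thus goes with the replicate number in both genotypes. Of the 12908 tested genes, 47.3 percent differed between genotypes in edgeR's quasi-likelihood test with Benjamini-Hochberg adjustment at 0.05, 24.2 percent higher and 23.1 percent lower in the knockout. A changed gene is therefore common in this comparison. Enterocyte markers, transcripts of the absorptive cells of the villus, were higher in knockout libraries in 14 of 14, with summed levels of 29600 to 97500 CPM in the knockout and 2520 to 12300 CPM in WT. Markers of dividing progenitors were lower in 8 of 8, at 555 to 907 CPM in the knockout and 1560 to 2000 CPM in WT. None of these markers was at 0 in all libraries. Their part in the results below was not tested, and in bulk RNA fewer cells of a type and less RNA per cell cannot be told apart.

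Epas1, Vegfa and Bnip3 rose 3.77-fold to 4.65-fold in knockout crypts, and in these 3 genes all 4 knockout libraries stood above all 4 WT libraries. Arnt and Egln1 rose by far less, and both calls were lost under several other settings. Hif1a, Vhl, Egln2, Egln3 and Ankrd37 were not called. Without knockout replicate 1, edgeR called Hif1a lower. On all 8 libraries none of the 10 was called lower by edgeR or DESeq2, nor at an unadjusted p under 0.05 in the edgeR test named above. Thus 5 of the 10 genes were called higher, beside 24.2 percent of all tested genes, and 3 of the 10 had all knockout libraries above all WT ones, beside 22.7 percent; in either direction 45.4 percent of all tested genes did not overlap. The median log2 fold change (knockout over WT) of the 10 genes was 0.56, beside 0.034 for all tested genes. The number called higher was 3 without knockout replicate 1 or WT replicate 1, 3 or 4. With the replicate number as a block it was 7, Egln2 and Egln3 added. All tested genes then gave 3672 higher, against 3129 without the block. Levels below are counts scaled to library size (CPM) with TMM factors, which correct for library composition.

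**Figure D1:**
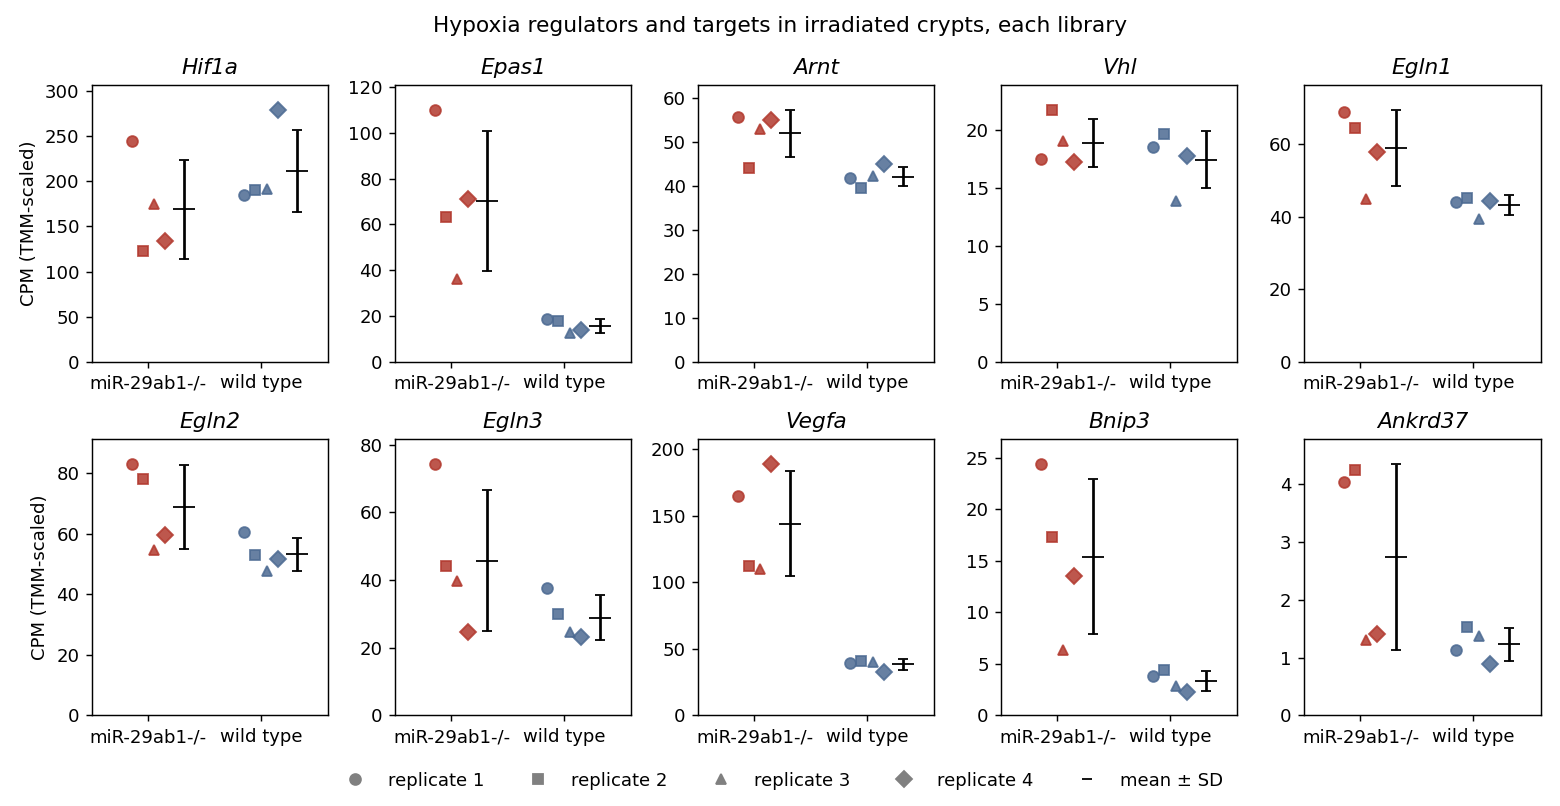
Each panel plots one gene, with CPM (TMM-scaled, axis from 0) in each miR-29ab1-/- library (red) and each wild-type library (blue). Symbols mark the replicate number, and the bar is the mean ± SD of 4 libraries. Epas1, Vegfa and Bnip3 show no overlap between the genotypes, and Hif1a shows 1 high wild-type library at 279 CPM.

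Vegfa stood at 165, 112, 110 and 189 CPM in knockout replicates 1 to 4, and at 39.0, 41.0, 40.2 and 32.4 CPM in WT replicates 1 to 4. The WT libraries lay close together and the knockout libraries spread more widely, with replicates 1 and 4 highest. The mean was 144 ± 39.2 CPM in the knockout and 38.2 ± 3.90 CPM in WT (SD, n = 4 each), a 3.77-fold rise (log2 fold change 1.92, SE 0.20, edgeR adjusted p = 0.00108). It was called in every one of the 18 other settings tried, with log2 fold changes from 1.57 to 2.02. The gene lies at chr17:46016993-46032369 on the minus strand.

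Epas1, which codes for HIF-2 alpha, stood at 110, 63.2, 36.1 and 71.2 CPM in knockout replicates 1 to 4, and at 18.5, 17.9, 12.4 and 13.8 CPM in WT replicates 1 to 4. Knockout replicate 1 was the highest and replicate 3 the lowest of its group, and the lowest knockout library was still above the highest WT library. The mean was 70.2 ± 30.7 CPM in the knockout and 15.6 ± 3.02 CPM in WT (SD, n = 4 each), a 4.50-fold rise (log2 fold change 2.17, SE 0.31, edgeR adjusted p = 0.00123). The call held in all 18 settings, from 1.54 to 2.39 on the log2 scale. Its longest 3′ UTR of 2308 bases holds no miR-29 seed match. Epas1 is strongly expressed in blood vessel lining in many tissues, and of 10 endothelial markers 7 were tested, of which Egfl7 was lower and none higher. Their summed level was 12.2 to 40.8 CPM in the knockout and 17.7 to 20.2 CPM in WT, and none was at 0 in all libraries.

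Hif1a, the other alpha subunit, did not share this pattern. It stood at 245, 123, 175 and 134 CPM in knockout replicates 1 to 4, and at 185, 190, 191 and 279 CPM in WT replicates 1 to 4. The groups overlapped, with knockout replicate 1 above 3 of the WT libraries. The log2 fold change was −0.32 (SE 0.24, edgeR adjusted p = 0.290). It was called lower without knockout replicate 1 (log2 fold change −0.606, edgeR adjusted p = 0.0368) and in limma on log2(FPKM + 1) (−0.623, limma adjusted p = 0.0462), a scale without the composition factors. The call of Hif1a therefore depends on a single library and on the measure used.

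The balance of both alpha subunits was followed within each library on FPKM, the deposited level per length. The ratio of Epas1 to Hif1a was 0.367, 0.417, 0.167 and 0.432 in knockout replicates 1 to 4, and 0.0804, 0.0767, 0.0522 and 0.0394 in WT replicates 1 to 4. Every knockout library had the higher ratio, and in all 8 libraries Hif1a was the more abundant transcript per length. Arnt, the shared partner, stood at 55.6, 44.1, 52.9 and 54.9 CPM in knockout replicates 1 to 4 and at 41.8, 39.4, 42.2 and 44.9 CPM in WT replicates 1 to 4. Knockout replicate 2 fell within the WT range and the other 3 lay above it. The log2 fold change of Arnt was 0.30 (SE 0.10, edgeR adjusted p = 0.0393). It was not called when counts were scaled by library total (0.039, edgeR adjusted p = 0.856), nor in 7 of the 8 fits that left out 1 library.

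The prolyl hydroxylases moved less than Epas1, Vegfa and Bnip3. Egln1, the main oxygen sensor of most cells, stood at 68.9, 64.3, 44.9 and 57.7 CPM in knockout replicates 1 to 4, and at 44.0, 45.2, 39.2 and 44.4 CPM in WT replicates 1 to 4. Knockout replicate 3 lay inside the WT range. The log2 fold change was 0.45 (SE 0.14, edgeR adjusted p = 0.0245), and it was 0.163 with total-count scaling, where the call was lost (edgeR adjusted p = 0.222). The Egln1 call was lost in 10 of the 18 other settings, among them most of the fits that left out 1 library. Egln2 averaged 68.8 ± 13.9 CPM in the knockout and 53.2 ± 5.50 CPM in WT (SD, n = 4 each; log2 fold change 0.37, SE 0.15, edgeR adjusted p = 0.0742). With the replicate number as a block Egln2 was called higher (0.354, edgeR adjusted p = 0.0195).

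Egln3, itself a HIF target in many cells, spread the most of the hydroxylases. It stood at 74.4, 44.2, 39.6 and 24.5 CPM in knockout replicates 1 to 4, and at 37.8, 30.0, 24.5 and 23.2 CPM in WT replicates 1 to 4. In both genotypes replicate 1 was highest and replicate 4 lowest, and each knockout library lay above the WT library of its number. Without the block Egln3 was not called (log2 fold change 0.66, SE 0.31, edgeR adjusted p = 0.105), and with the block it was called higher (0.585, edgeR adjusted p = 0.0140). On FPKM, Egln3 made up 16.8 to 31.7 percent of the summed hydroxylase transcripts in the knockout and 18.7 to 25.1 percent in WT.

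Vhl, the substrate receptor that binds hydroxylated alpha subunits, averaged 18.9 ± 2.07 CPM in the knockout and 17.4 ± 2.46 CPM in WT (SD, n = 4 each). The groups overlapped, and the log2 fold change was 0.12 (SE 0.14, edgeR adjusted p = 0.534). Its sign changed with total-count scaling (−0.145), so no direction can be given.

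**Figure D2:**
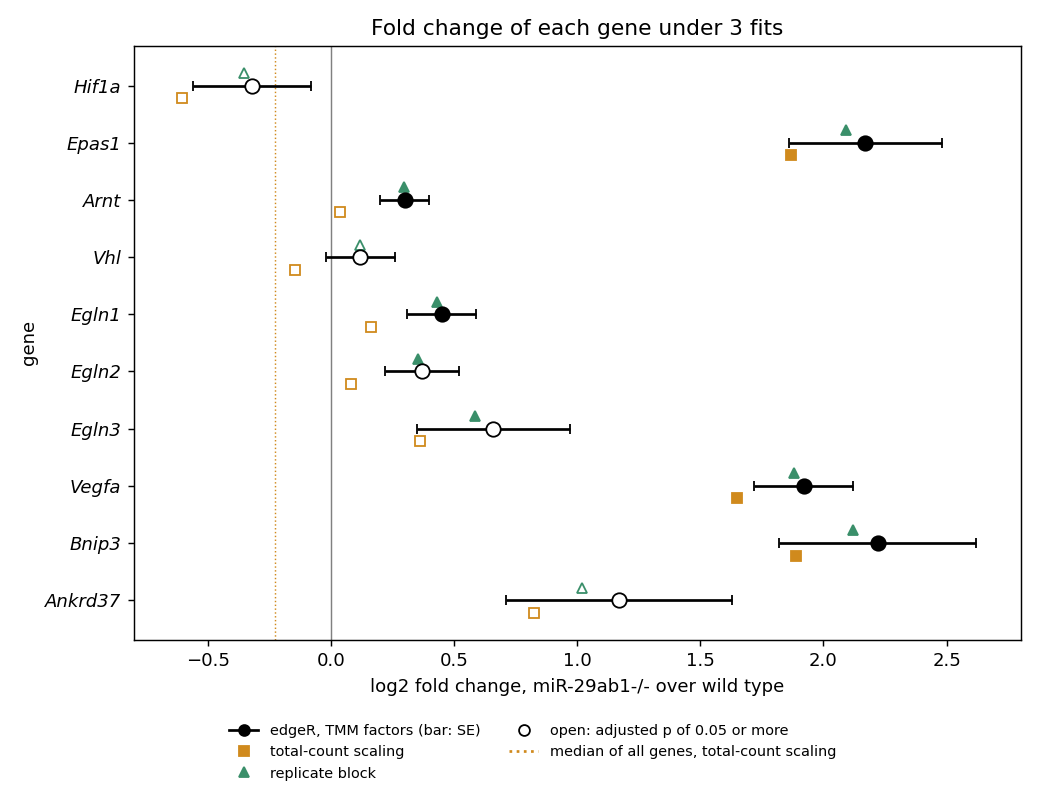
Log2 fold change of each gene, miR-29ab1-/- over wild type (x axis), from edgeR with TMM factors (black, bar: SE), with total-count scaling (squares) and with the replicate block (triangles). Filled symbols passed an adjusted p of 0.05. Vegfa, Epas1 and Bnip3 are filled in all 3 fits, and with total-count scaling, which puts the median of all tested genes at −0.228, Arnt and Egln1 are open.

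Bnip3, a mitochondrial protein that calls in autophagy and is induced by HIF-1 in many cells, stood at 24.4, 17.3, 6.38 and 13.5 CPM in knockout replicates 1 to 4. In WT replicates 1 to 4 it stood at 3.81, 4.39, 2.87 and 2.26 CPM. Knockout replicate 3 was the lowest of its group and still above all WT libraries. The mean was 15.4 ± 7.51 CPM in the knockout and 3.33 ± 0.953 CPM in WT (SD, n = 4 each), a 4.65-fold rise (log2 fold change 2.22, SE 0.40, edgeR adjusted p = 0.00238). The call held in all 18 settings, from 1.46 to 2.48. Of the 2260 stretches of 50 bases in its GENCODE transcripts, 47.2 percent also occur in other annotated genes on either strand, among them Gm16439 and Gm6532 on the same strand. These genes have no row in the table and the strandedness of the counting is not given, so part of the Bnip3 count may belong to them and its values are uncertain.

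Ankrd37, a small ankyrin repeat protein that responds to hypoxia in cultured cells, was the least abundant. It had 47, 48, 13 and 15 counts in knockout replicates 1 to 4 and 16, 17, 23 and 16 counts in WT replicates 1 to 4. Knockout replicates 1 and 2 stood apart at 4.03 and 4.24 CPM, and replicates 3 and 4, at 1.30 and 1.40 CPM, lay inside the WT range of 0.881 to 1.52 CPM. The log2 fold change was 1.17 (SE 0.46, edgeR adjusted p = 0.0614). It was called higher without knockout replicate 3 or 4 (edgeR adjusted p = 0.0236 and 0.0411) and with DESeq2 (adjusted p = 0.0473). Of its transcript stretches 17 percent also occur in other genes, mostly in Lrp2bp on the opposite strand, which had at most 5 counts in a knockout library and 7 in a WT library.

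The knockout libraries were ordered alike for Bnip3 and the enterocyte markers. Bnip3 was highest in replicate 1, then in replicates 2, 4 and 3, and the enterocyte marker sums were 97500, 84700, 44300 and 29600 CPM in that order. For Epas1 replicate 4 stood above replicate 2, and for Vegfa replicate 4 stood above all others. Within WT the marker sums were 12200, 12300, 4420 and 2520 CPM in replicates 1 to 4. Bnip3 was ordered in the same way there, highest in replicate 2 (4.39 CPM), then in replicates 1, 3 and 4 (3.81, 2.87 and 2.26 CPM). Epas1 was also higher in WT replicates 1 and 2 (18.5 and 17.9 CPM) than in replicates 3 and 4 (12.4 and 13.8 CPM), and Vegfa lay between 32.4 and 41.0 CPM in WT.

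**Figure D3:**
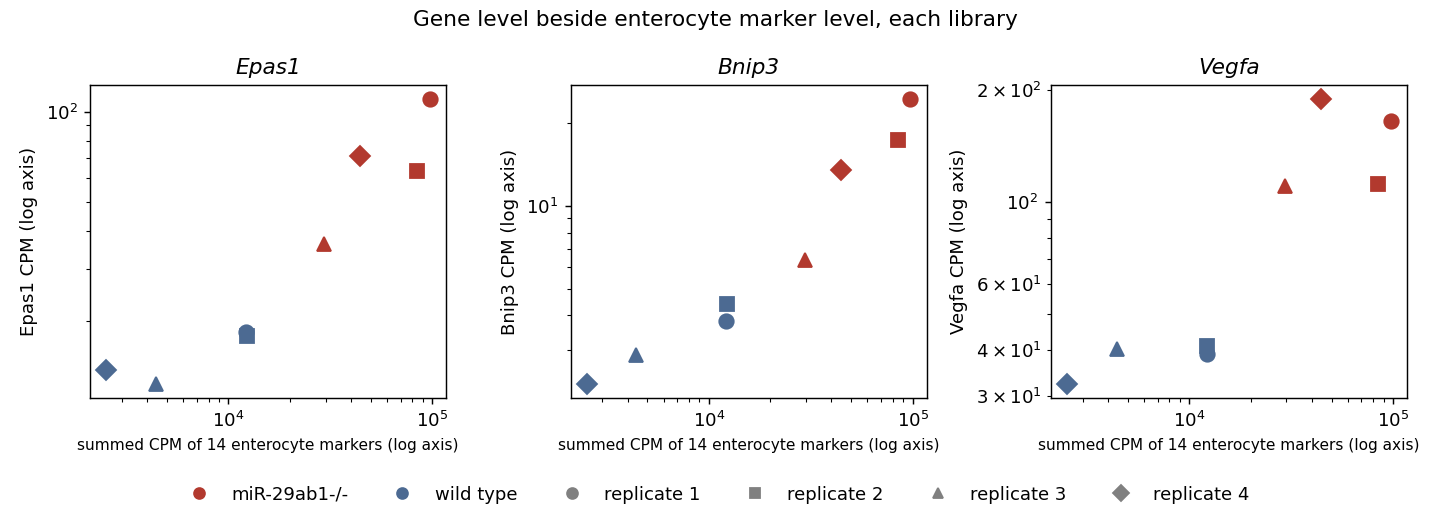
CPM of Epas1, Bnip3 and Vegfa (y axes, log) against the summed CPM of 14 enterocyte markers (x axes, log) in each miR-29ab1-/- library (red) and each wild-type library (blue); symbols mark replicates 1 to 4. Both groups are separate on both axes: marker sums are 29600 CPM or more in the miR-29ab1-/- libraries and 12300 CPM or less in the wild-type libraries, and the 3 genes show the same split.

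On the per-length scale the order of the transcripts differed between genotypes. In the knockout, mean FPKM was 42.5 ± 13.0 for Vegfa, 36.1 ± 10.5 for Hif1a and 31.5 ± 2.41 for Egln2, and these 3 overlapped between libraries. Egln3 (15.8 ± 5.76), Egln1 (15.6 ± 1.18), Epas1 (11.9 ± 4.14), Arnt (11.3 ± 2.17), Bnip3 (8.22 ± 3.21) and Vhl (6.61 ± 0.979) followed, each overlapping the next, and Ankrd37 (2.94 ± 1.54) lay below Vhl in all libraries (SD, n = 4). In WT, Hif1a led alone at 55.4 ± 13.4, then Egln2 at 30.3 ± 1.82, and then Egln1 (13.9 ± 0.455), Vegfa (13.3 ± 1.5), Egln3 (12.3 ± 2.31) and Arnt (11 ± 1.15), in which each gene overlapped the next. Vhl (7.31 ± 0.667), Epas1 (3.26 ± 0.451), Bnip3 (2.22 ± 0.548) and Ankrd37 (1.70 ± 0.427) came last, with Vhl clear of Epas1. By rank of the mean Vegfa was 1 in the knockout and 4 in WT, and Epas1 was 6 and 8. Vegfa did not lead in every knockout library. Hif1a stood above it in knockout replicate 1 (45.83 against 42.14 FPKM) and replicate 3 (43.76 against 38.12 FPKM). Egln2 stood above it in replicate 2 (33.11 against 29.43 FPKM), and in replicate 4 Vegfa led at 60.35 FPKM.

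**Figure D4:**
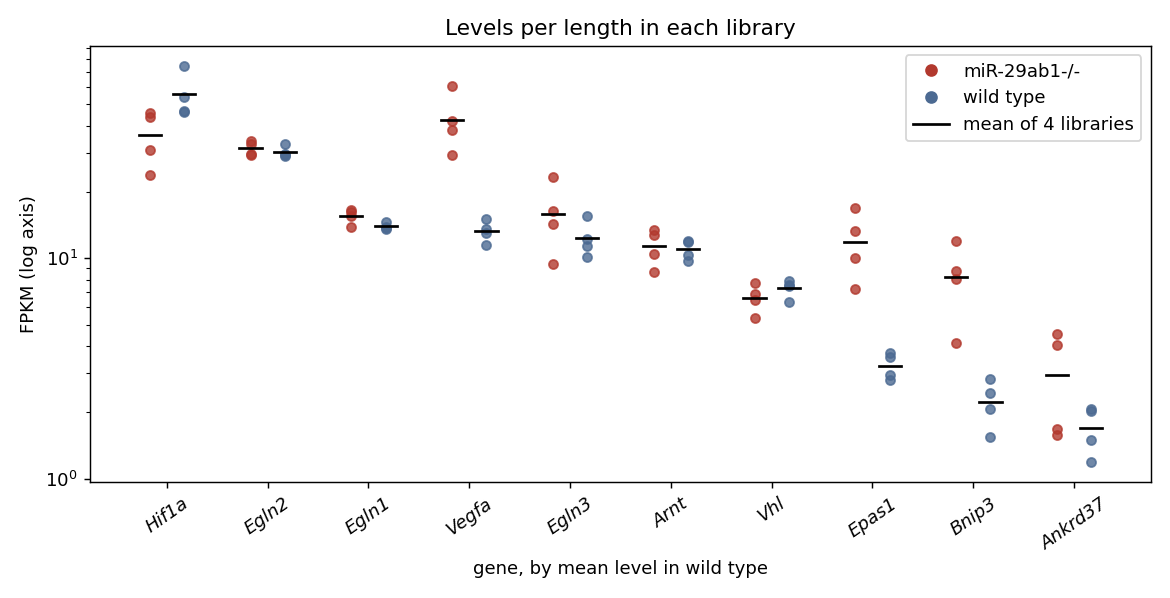
FPKM (log axis) of each gene in each miR-29ab1-/- library (red) and each wild-type library (blue), ordered by the wild-type mean; black lines are means of 4 libraries. Hif1a has the highest mean in wild type, 55.4. In miR-29ab1-/- the highest mean is that of Vegfa, 42.5, and its libraries overlap those of Hif1a and Egln2.

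Promoters were read for the core letters of the hypoxia response element, ACGTG, on both strands, from 250 bases before to 50 after a RefSeq start site (GRCm38). A window was found for 9 of the 10 genes, all but Epas1, and 7 of the 11 windows held the motif, beside 24.9 percent of windows of all tested genes. Hif1a, Egln1, Egln2, Egln3, Vegfa, Bnip3 and Ankrd37 held it, and the windows of Arnt and Vhl did not. In Hif1a, Egln2 and Bnip3 overlapping matches on both strands spell CACGTG, which is also the E-box of the MYC and clock proteins and is present in 9.67 percent of windows of tested genes. The stretches of the 3 called genes that hold the motif are shown with the letters of a single match in capitals. In Bnip3 the overlapping match on the opposite strand begins at the c just before the capitals. The Vegfa match is on the opposite strand, so it reads CACGT, and lies in the window of a second start site inside the gene. The Vegfa window at the start of the gene held no match, nor did the downstream window of Egln2.
Bnip3 (chr7:138909599-138909623, minus strand): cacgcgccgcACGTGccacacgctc
Egln1 (chr8:124949308-124949332, minus strand): gccgtggtgtACGTGcagcgcgcgc
Vegfa (chr17:46025360-46025384, minus strand): agtgcgtgccCACGTcagagagcaa
The motif starts 107 bases before the start site in Bnip3, 68 in Egln1 and 211 in Vegfa. A match describes the letters alone and shows no binding.

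Of 39 tested textbook targets of HIF other than the 10, 11 were higher and 11 lower in the knockout, shares near the 24.2 and 23.1 percent of all tested genes. The list had a median log2 fold change of 0.095 and a range from −2.08 to 3.62; without WT replicate 4 the lower count was 7. The 3 with the smallest p were the glycolytic regulators Pfkfb4 (97.9 ± 9.72 CPM in the knockout, 20.2 ± 8.10 CPM in WT, SD, n = 4 each; 4.86-fold, edgeR adjusted p = 0.00116) and Pfkfb3 (4.61-fold, edgeR adjusted p = 0.00165) and the MYC antagonist Mxi1 (2.18-fold, edgeR adjusted p = 0.00145). Among others, chosen after their values were seen, Ndrg1, a stress and differentiation gene, rose 5.18-fold and Angptl4, a lipoprotein lipase inhibitor that PPARs also induce, rose 12.3-fold (edgeR adjusted p = 0.00304 and 0.00333). In both, knockout replicate 3 was far below the other knockout libraries, at 52.5 CPM for Ndrg1 and 13.1 CPM for Angptl4.

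Carbonic anhydrase 9, Car9, one of the most used markers of hypoxia, was lower in the knockout, as was the glucose transporter Slc2a1. Car9 stood at 47.3, 63.4, 56.4 and 53.0 CPM in knockout replicates 1 to 4 and at 72.9, 66.5, 68.9 and 83.9 CPM in WT replicates 1 to 4. The groups did not overlap (log2 fold change −0.41, SE 0.12, edgeR adjusted p = 0.0213). The call of Car9 was lost without WT replicate 4 or knockout replicate 1 (edgeR adjusted p = 0.0640 and 0.0504). Slc2a1 averaged 43.6 ± 9.86 CPM in the knockout and 68.4 ± 4.45 CPM in WT (SD, n = 4 each; log2 fold change −0.65, edgeR adjusted p = 0.00844). Pdk1, the kinase that holds pyruvate back from the TCA cycle, was just past the threshold as lower (log2 fold change −0.32, edgeR adjusted p = 0.0485) and lost its call in all 8 fits that left out 1 library but the one without knockout replicate 4.

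Of 19 other regulators of HIF, 4 were higher and 4 lower, again near the 24.2 and 23.1 percent of all tested genes, with a median log2 fold change of 0.19. The lower count was 2 without knockout replicate 1 or 3 or WT replicate 1 or 2, and the higher count was 7 with the replicate block. Os9, a lectin of endoplasmic reticulum quality control that was also tied to HIF turnover, rose to 271 ± 53.1 CPM in the knockout, against 119 ± 19.0 CPM in WT (SD, n = 4 each; edgeR adjusted p = 0.00133). Cited2, which competes with HIF for the coactivators CBP and p300, rose 2.15-fold (edgeR adjusted p = 0.00155). Siah1b, a ubiquitin ligase of the hydroxylases, fell to 8.69 ± 0.973 CPM in the knockout, against 17.2 ± 2.39 CPM in WT (edgeR adjusted p = 0.00157); it has a close relative in Siah1a, which was called higher, so reads may be split between them.

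Of the ligase that works with VHL, the scaffold Cul2 and the RING subunit Rbx1 were lower (log2 fold change −0.57 and −0.35, edgeR adjusted p = 0.00172 and 0.0233), and the call of Rbx1 was lost in 5 of the 8 fits that left out 1 library. Elob and Eloc, the adaptors between them and VHL, were not called (0.08 and −0.38, edgeR adjusted p = 0.655 and 0.0701). Hif3a, an alpha subunit that can oppose the others, was called higher (log2 fold change 2.28, SE 0.65, edgeR adjusted p = 0.0174), at 8.84, 10.7, 1.70 and 24.0 CPM in knockout replicates 1 to 4 and 2.96, 2.78, 1.37 and 2.20 CPM in WT replicates 1 to 4. Knockout replicate 3 lay inside the WT range and replicate 4 was far above the other knockout libraries. Without knockout replicate 4 the log2 fold change of Hif3a was 1.6 (edgeR adjusted p = 0.0489). The call was lost without replicate 4 of both groups (edgeR adjusted p = 0.0927) and in both limma fits on FPKM (0.726 and 1.37 on the log2 scale, limma adjusted p = 0.0840 and 0.0834). The factor-inhibiting hydroxylase Hif1an averaged 47.9 ± 5.22 CPM in the knockout and 49.5 ± 3.97 CPM in WT (edgeR adjusted p = 0.744).

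Of 9 VEGF relatives and receptors 6 passed the low-count filter. None was called in either direction by DESeq2, or by edgeR with TMM factors on all 8 libraries and genotype alone. Of all tested genes that edgeR fit called 47.3 percent. At an unadjusted p under 0.05 it had 1 of these 6, Vegfb. With total-count scaling Vegfb was called lower (log2 fold change −0.738, edgeR adjusted p = 0.0216), as it was without knockout replicate 2 (adjusted p = 0.0303). Both limma fits on FPKM also called Vegfb lower. The ligand Vegfb averaged 6.39 ± 1.53 CPM in the knockout and 8.82 ± 0.571 CPM in WT (SD, n = 4 each; log2 fold change −0.46, edgeR adjusted p = 0.0882), and the coreceptor Nrp2 had a log2 fold change of −0.72 (edgeR adjusted p = 0.104). Nrp2 was called lower once the replicate number was a block (−0.697, edgeR adjusted p = 0.0419), as it was without knockout replicate 3 (adjusted p = 0.0480). The lymphatic ligand Vegfc was near 1 to 2 CPM (log2 fold change 0.74, edgeR adjusted p = 0.187). Kdr, the main VEGF receptor of endothelium, had 6.46 CPM in knockout replicate 4 and at most 1.1 CPM in the other 7 libraries. That library also had the highest endothelial marker sum, 40.8 CPM.

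Of 6 gut iron genes listed here under HIF-2, 2 rose and 1 fell, so 3 of 6 were called, beside 47.3 percent of all tested genes. The one that fell, Tfrc, is also counted among the HIF targets above. Heph, the ferroxidase of the basal membrane, rose to 301 ± 96.8 CPM in the knockout, against 109 ± 19.3 CPM in WT (SD, n = 4 each; edgeR adjusted p = 0.00178). The copper pump Atp7a rose 1.55-fold (edgeR adjusted p = 0.0112), a call that total-count scaling ended (edgeR adjusted p = 0.159), and the transferrin receptor Tfrc fell to 128 ± 32.5 CPM in the knockout, against 244 ± 22.4 CPM in WT (edgeR adjusted p = 0.00343). Slc11a2, the iron importer most tied to HIF-2, averaged 39.7 ± 3.38 CPM in the knockout and 39.8 ± 0.672 CPM in WT (edgeR adjusted p = 0.981). The exporter Slc40a1 and the reductase Cybrd1 were not called either (edgeR adjusted p = 0.0871 and 0.739).

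Barrier genes that HIF is known to induce in gut epithelium were mostly higher: 7 of 9 rose, beside 24.2 percent of all tested genes, and none fell (edgeR and DESeq2, and none at an unadjusted p under 0.05 in edgeR), with a median log2 fold change of 1.7. The adenosine receptor Adora2b rose to 15.3 ± 7.61 CPM in the knockout, against 1.54 ± 0.720 CPM in WT (SD, n = 4 each; edgeR adjusted p = 0.00118). Nt5e, which makes adenosine outside the cell, and the drug efflux pump Abcb1a rose 8.03-fold and 7.12-fold (edgeR adjusted p = 0.00276 and 0.00268). In both, knockout replicate 3 was lowest of its group, and it was at 35.6 CPM for Nt5e. Muc3 and Tff3, named after their values were seen, rose 3.73-fold and 3.26-fold; Muc3 is a mucin of the absorptive cell surface and Tff3 a goblet cell peptide. Goblet cell markers were higher in 6 of 8, with summed levels of 9290 to 15000 CPM in the knockout and 2010 to 4630 CPM in WT, none was at 0 in all libraries, and Tff3 is one of them. Enterocyte markers were higher in 14 of 14, at 29600 to 97500 CPM in the knockout and 2520 to 12300 CPM in WT. The part of either cell type in this count was not tested.

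Mitophagy receptors and their partners were higher in 7 of 11 and lower in 2, beside 24.2 and 23.1 percent of all tested genes. Pink1, the kinase that marks damaged mitochondria, rose to 109 ± 24.0 CPM in the knockout, against 30.1 ± 10.2 CPM in WT (SD, n = 4 each; edgeR adjusted p = 0.00124), and the autophagosome protein Map1lc3a rose 2.12-fold (edgeR adjusted p = 0.00369). The receptor Bcl2l13 fell to 44.1 ± 3.36 CPM in the knockout, against 61.0 ± 4.34 CPM in WT (edgeR adjusted p = 0.00459). Bnip3l, the closest relative of Bnip3, rose 1.53-fold (edgeR adjusted p = 0.0151), less than Bnip3, and total-count scaling ended its call (edgeR adjusted p = 0.0515). With that scaling the count for the list was 3 higher and 4 lower, and without knockout replicate 1 or 2 it was 3 or 4 higher. Over all 88 tested genes of these lists, 30 were higher and 17 lower, and with total-count scaling 22 and 24; over all tested genes that scaling gave 2089 higher and 4011 lower, against 3129 and 2976 with TMM factors.

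**Figure D5:**
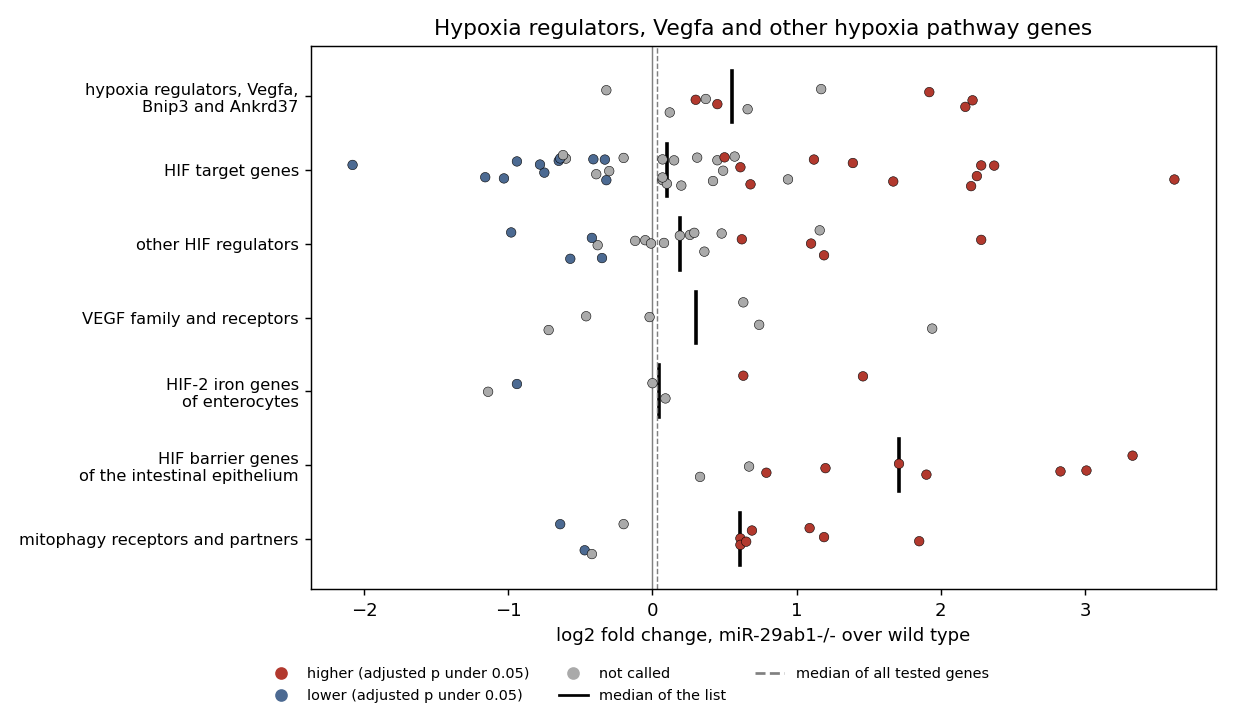
Log2 fold change, miR-29ab1-/- over wild type (x axis), of the 10 genes (top row) and of the tested genes of each list of other hypoxia pathway genes. Points are genes, red higher and blue lower at an adjusted p under 0.05, grey not called; black bars are list medians and the dashed line is the median of all tested genes. HIF targets spread from −2.08 to 3.62 on both sides of 0, and 7 of 9 barrier genes are red.

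Genes with the profile closest to Vegfa, Epas1 and Hif1a were ranked by the mean absolute difference in log2 CPM over the 8 libraries, after each gene was centred on its own mean. Among 10700 genes, those nearest to Vegfa were the brush-border enzyme Mgam (0.143), Ralgps1 (0.160) and Dennd5b (0.167). Nearest to Epas1 were the interleukin receptor Il22ra1 (0.0865), Mia2 (0.124) and Gramd1b (0.130). Nearest to Hif1a were C1galt1 (0.142), Ppp2r3a (0.153) and Nt5c2 (0.154), none of which was called. These distances describe the 8 libraries, which share the difference between genotypes.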

How the data were processed

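Crypt RNA, extracted with TRIzol per the labels, was sequenced as 8 libraries, 4 per genotype, grouped and numbered by their labels. The submitters' processing notes list HISAT2 and DESeq2 but no role for either. Strand setting, counting program, build and annotation were not given in the sources used here. Per-gene values in the authors' table are estimated counts (8.036 to 9.181 percent not whole), which were rounded. A second set of columns, whose header names no unit, was taken as FPKM made by the authors, because value over count, compared between libraries, matched the inverse ratio of their totals within 0.663 percent. The authors' averages were not used.

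Counts were tested in edgeR 4.0.16 on R 4.3.3 (filterByExpr, TMM, glmQLFit, glmQLFTest, genotype alone), with adjustment over all 12908 tested genes at 0.05. Each SE was taken as the absolute log2 fold change divided by the square root of F. TMM factors were 0.798 to 1.059 in the knockout and 1.041 to 1.19 in WT. The fits were tested on simulated data. DESeq2 1.42.0 and limma 3.58.1 served as alternatives. Libraries of 1 group differed by at least 5.886 times the sampling variance per gene, so none was counted as a second deposit of another. That lowest value was for WT replicates 1 and 2, which were far closer than all other pairs (28.68 to 115.4). Among replicates 1 to 3 of a genotype these values do not tell separate animals from separate preparations of 1 animal. Deviations of same-numbered libraries from their group means correlated at 0.311 to 0.524 across genes and those of other pairs at −0.478 to 0.447. The replicate numbers may therefore pair the samples, although what the numbers stand for is not in the labels. The main test left this pairing out, and a fit with the replicate number as a block was run as an alternative.

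The 10 genes, the lists and the tests were chosen with earlier results of these data known. Named genes are the 10, up to 3 per list with the smallest p, and the 3 nearest in profile to Vegfa, Epas1 and Hif1a with a mean of at least 50 counts; others were named after their values were seen. Seed matches and promoters use GENCODE M21 and RefSeq on GRCm38.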

Additional observations from a re-analysis of the deposited data

Results flagged for a closer look

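Among 51 named genes, 102 groups of 4 libraries were looked at for a single library far from the other 3, and 3 were found, where chance gives about 1 in 20 groups. Hif1a was at 279 CPM in WT replicate 4 and at 185 to 191 CPM in the other WT libraries. Rbx1 was at 53.4 CPM in knockout replicate 2 and at 43.5 to 45.2 CPM in the other knockout libraries. Kdr was at 6.46 CPM in knockout replicate 4 and at 0.0858 to 1.1 CPM in the other knockout libraries, and without that library its log2 fold change was −0.098.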

How the results depend on the processing

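Vegfa, Epas1 and Bnip3 were called higher in each of the 18 alternatives. Of the 10 genes, 5 were called higher and 0 lower; the counts were 3 and 0 with total-count scaling and without replicate 4 of both groups, and 3 and 1 (Hif1a) in limma on log2(FPKM + 1) and on log2(FPKM + 0.1). Leaving out 1 library gave 3 to 6 higher and 0 to 1 lower. With the replicate block 7 were higher, Egln2 and Egln3 added, and none of the 5 calls ended; all tested genes then gave 3672 higher and 3554 lower, against 3129 and 2976 without it. All tested genes gave 2030 and 2040 higher in limma with pseudocounts of 1 and 0.1, and the pathway lists 26 lower in both, against 17. Vhl turned to −0.145 with total-count scaling, −0.018 without knockout replicate 2 (−0.018 to 0.171 over single libraries left out), and −0.133 and −0.151 in limma. Hif1an turned to 0.003 without WT replicate 4 (−0.119 to 0.003), Kdr to −0.098 without knockout replicate 4 (−0.098 to 2.45), and Slc11a2 to 0.007 with RLE factors, 0.026 where genes needed a mean of 50 counts, and 0.001 without WT replicate 3 (−0.085 to 0.001); none of these was called. The cause was not tested. Of 179 values of the 10 genes under alternatives, 141 kept their side of the threshold and their sign, 23 lost a call, 11 gained one and 4 changed sign. Ankrd37 and the VEGF receptors rest on few counts.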

Other observations

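The hydroxylases that sense oxygen belong to a larger family of 2-oxoglutarate-dependent enzymes, and 9 of its other members were in the lists; they were grouped after their values were seen. Of these 9, 3 were higher and 1 lower in the knockout, beside 24.2 and 23.1 percent of all tested genes. The higher ones were Plod1 (3.18-fold), a collagen lysyl hydroxylase, and the histone demethylases Kdm4b (1.6-fold) and Kdm3a (1.42-fold). Jmjd6, a lysyl hydroxylase of splicing factors, was lower at 38.5 ± 2.35 CPM in the knockout and 48.5 ± 3.12 CPM in WT (SD, n = 4 each; edgeR adjusted p = 0.0174). The other 5, among them the collagen prolyl hydroxylases P4ha1 and P4ha2, were not called. In Kdm4b the groups did not overlap, as in 45.4 percent of all tested genes. Kdm4b stood at 27.3 ± 1.75 CPM in the knockout and 17.1 ± 1.62 CPM in WT (edgeR adjusted p = 0.00182).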
